A study of Mus musculus with 6 samples.

Results

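The proteins that choose which exons stay in a messenger RNA were examined as one group of genes in MB21 cells after treatment with DS38 or its vehicle. The group held 47 protein-coding genes of the 55416 in the deposited count table. It comprised every gene whose symbol begins with Srsf or Hnrnp, together with Tra2a, Tra2b, Srrm1, Srrm2, Ptbp1, Ptbp2, Rbfox1, Rbfox2, Nova1, Nova2, Clk1, Clk2, Clk3, Clk4, Srpk1 and Srpk2. Pseudogenes were left out. MB21 is a mouse medulloblastoma line with a ptch mutant genotype, shared by both groups, and Ptch1 encodes the receptor that restrains hedgehog signalling. The DS38 group (3 libraries) received DS-1-38, a benzarone derivative, at 10 uM, and the DMSO group (3 libraries) received the vehicle. The sample titles and treatment protocol give 1 day of exposure, while the design text gives 5 days; 1 day is used here. Nothing in the labels states that replicates came from different cultures; the p-values therefore reflect the spread among these libraries alone, and that spread may be technical.

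SR proteins carry RNA recognition motifs and a tail rich in arginine and serine, bind enhancer sequences in exons and help the spliceosome recognise weak splice sites. hnRNP proteins coat nascent transcripts and often act the other way, at silencers, so that the balance of both kinds sets whether an exon is included. SRPK kinases in the cytoplasm and CLK kinases in the nucleus phosphorylate the SR tails and thereby control where these proteins reside and when they act. In neurons and their progenitors the PTB, RBFOX and NOVA proteins impose tissue-specific exon choices, and Ptbp1 gives way to Ptbp2 as neuronal progenitors differentiate. Counts per gene give the level of each regulator and do not show exon usage.

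Library totals were 60434089 to 84044428 counts in DS38 and 38840296 to 50014681 counts in DMSO, so every DS38 library was the deeper. The DMSO libraries differed more among themselves (chi-square statistic 8.31 to 9.37 times its degrees of freedom) than the DS38 libraries did (2.94 to 3.63 times). By this statistic DMSO replicate 3 lay nearest to the DS38 libraries, at 10.5 to 12.98 times, against 24.9 to 29.7 times for the other DMSO libraries. By the correlation of log2 levels DMSO replicate 1 lay nearest (r of 0.9917 to 0.9926, against 0.9915 to 0.9923 for DMSO replicate 3). Without DMSO replicate 3, 22 of the regulators described here were lower in DS38 and 4 higher. All 10 granule progenitor and hedgehog medulloblastoma markers were detected, with summed levels of 2006 to 2051 CPM (TMM-normalized counts relative to library size) in DS38 and 2041 to 2083 CPM in DMSO. Of these 10, 2 rose and 6 fell. For 7 neuronal markers, of which Gabra6 was at 0, the sums were 226 to 234 CPM in DS38 and 233 to 245 CPM in DMSO; 2 rose and 3 fell. The 5 astrocyte markers summed to 143 to 149 CPM in DS38 and 144 to 152 CPM in DMSO. Most of that sum was Slc1a3 (139 CPM in DS38, 144 CPM in DMSO), and Aqp4, Aldh1l1 and S100b were under 1 CPM. The 7 oligodendrocyte lineage markers summed to 96.1 to 98.2 CPM in DS38 and 95.7 to 96.5 CPM in DMSO. Most of this was Pdgfra (70.0 CPM in DS38, 71.5 CPM in DMSO) and Olig1. Sox10, Mbp and Mog averaged under 1 CPM, and Olig2 had 1.33 CPM in DS38 and 1.37 CPM in DMSO. The 6 microglial markers were each under 1 CPM in every library, with C1qa at 0. The 5 markers of fibroblasts and endothelium each averaged under 1 CPM in both groups and summed to 1.31 to 1.93 CPM in DS38 and 1.06 to 1.45 CPM in DMSO. Among the markers of these other cell types 3 rose and none fell by edgeR's test: Olig1 (22.8 ± 1.23 CPM in DS38, 19.9 ± 0.480 CPM in DMSO; adjusted p = 0.00799), Gfap (5.40 ± 0.333 CPM in DS38, 4.33 ± 0.241 CPM in DMSO; adjusted p = 0.0179) and Col1a1 (0.822 ± 0.258 CPM in DS38, 0.373 ± 0.168 CPM in DMSO; adjusted p = 0.0122). The part of these shifts in the results was not tested. In such bulk libraries fewer cells of a type and less RNA per cell cannot be told apart.

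All 47 regulators passed the filter on low counts, the scarcest (Srsf12) with 501 reads over the 6 libraries. Calls were made at an adjusted p under 0.05 by edgeR's quasi-likelihood test, with Benjamini-Hochberg adjustment over 17679 genes. By this test 20 were lower in DS38 (42.6%), 4 were higher (8.51%) and 23 did not pass. Across all genes tested 24.5% passed, 11.7% lower and 12.9% higher in DS38. With libraries scaled by their totals alone the share of higher calls among all called genes was 68.1%, against 52.4% with TMM scaling. Of the 5616 tested genes with a mean of at least 40 CPM, 22.2% were lower and 14.2% higher; of the 44 regulators at that level, 20 were lower (45.5%) and 4 higher (9.09%). The bound of 40 CPM was chosen after the data were seen.

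The changes were small. The largest fall past the threshold was 0.35 on the log2 scale (Nova2), none of the 47 regulators changed 2-fold, and the median log2 fold change was -0.07, against 0.00 for all genes tested. With scaling by library totals alone that median was -0.03. In 28 of the regulators every DS38 library lay below every DMSO library (59.6%), against 17.9% of all genes tested. In 6 of the 47 every DS38 library lay above every DMSO library, a smaller share than the 20.7% of all genes tested. These shares were not computed for genes at 40 CPM or more, the level of 44 of the regulators. In the other 13 the groups overlapped. The summed level of the group was 20753 ± 231 CPM in DS38 and 22396 ± 272 CPM in DMSO (SD, n = 3 libraries each). Of the 24 regulators that passed, 15 also passed, in the same direction, under each of the 17 alternatives tried. Among the others, Srsf1, Srsf4, Srsf5, Hnrnpa1, Hnrnph3, Hnrnpll, Ptbp1, Ptbp2, Rbfox2 and Srpk1 had not passed but were called lower under some alternative. Hnrnpc was called higher with scaling by library totals alone.

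**Figure D1:**
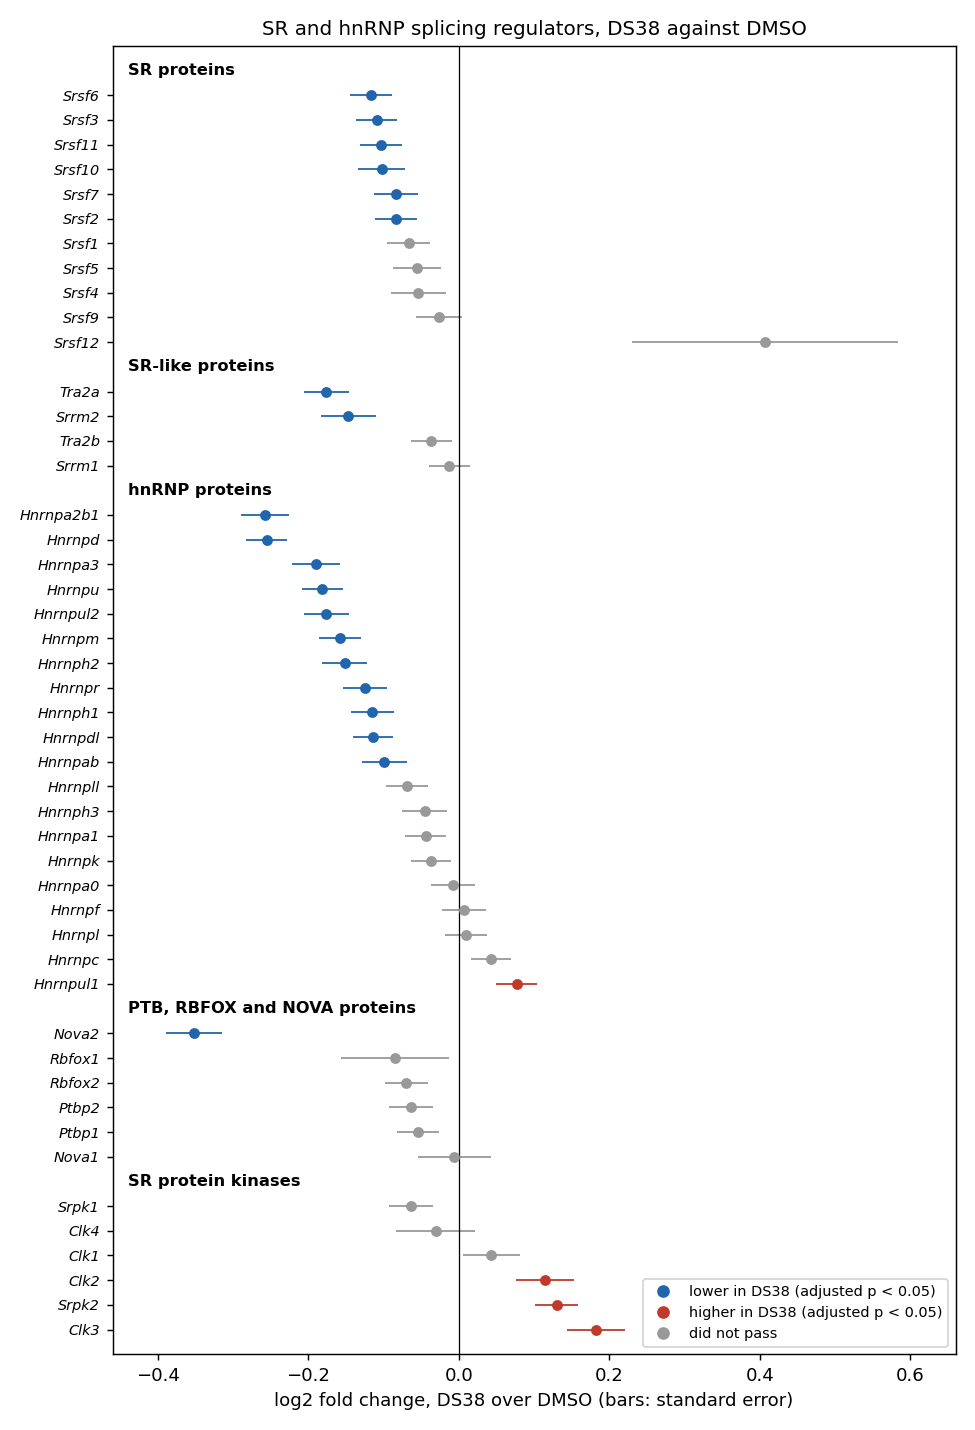
Log2 fold change of DS38 over DMSO for each of the 47 regulators, in 5 families, with bars for the standard error. Blue points are the 20 lower in DS38, red points the 4 higher, 3 of which are kinases, and grey points the 23 that did not pass.

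Nova2, Hnrnpd and Hnrnpa2b1 had the smallest adjusted p-values among the falls and Clk3 among the rises. Their core promoters are shown to give the sequence context of the genes that moved most clearly. Each line holds the 150 bases before the first start that RefSeq lists for the gene (GRCm38.p6), read 5′ to 3′ on the gene's strand. Capitals mark matches, on either strand, to the CCAAT box (CCAAT), the SP1 box (GGGCGG), an ETS site (CCGGAAG), the E-box (CACGTG) and the cyclic AMP response element (TGACGTCA).
Nova2 promoter, chr7:18925738-18925887, plus strand: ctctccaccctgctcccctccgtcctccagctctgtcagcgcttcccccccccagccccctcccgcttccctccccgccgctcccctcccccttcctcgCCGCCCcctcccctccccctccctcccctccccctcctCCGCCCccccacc
Hnrnpd promoter, chr5:99978939-99979088, minus strand: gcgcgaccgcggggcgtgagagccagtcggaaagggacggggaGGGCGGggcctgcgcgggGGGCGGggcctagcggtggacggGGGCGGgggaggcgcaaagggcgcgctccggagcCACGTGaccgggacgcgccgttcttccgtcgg
Hnrnpa2b1 promoter, chr6:51469895-51470044, minus strand: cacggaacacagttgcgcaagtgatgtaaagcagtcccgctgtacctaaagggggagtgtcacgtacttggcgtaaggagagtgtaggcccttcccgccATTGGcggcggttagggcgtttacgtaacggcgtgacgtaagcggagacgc
Clk3 promoter, chr9:57765115-57765264, minus strand: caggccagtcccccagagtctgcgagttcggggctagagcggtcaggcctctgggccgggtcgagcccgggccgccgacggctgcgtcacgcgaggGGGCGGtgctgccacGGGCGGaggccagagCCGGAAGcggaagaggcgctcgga
The stretch before Nova2 is rich in pyrimidines and has 2 SP1 boxes, and that of Hnrnpd has 3 SP1 boxes and 1 E-box. The one before Hnrnpa2b1 has 1 CCAAT box, read on the other strand as ATTGG, and no SP1 box. The one before Clk3 has 2 SP1 boxes and 1 ETS site. Promoters of 43 regulators were found in the RefSeq table, and all 5 motifs were searched on both strands in the 250 bases before each start, where matches may share bases. The CCAAT box occurred in 19 of them (44.2%), against 36.4% of the 10999 promoters of tested genes. The SP1 box occurred in 32 (74.4%, against 58.4%), the ETS site in 7 (16.3%, against 13.5%), the E-box in 4 (9.30%, against 8.10%) and the cyclic AMP response element in 2 (4.65%, against 2.85%). Among the 19 regulators that fell and had a promoter, 10 held a CCAAT box and 15 an SP1 box; among the 4 that rose, 2 held a CCAAT box and 3 an SP1 box; among the 20 that did not pass, 7 held a CCAAT box and 14 an SP1 box. A match is a description of letters and not a bound site.

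Among the 11 SR proteins, 6 fell (Srsf2, Srsf3, Srsf6, Srsf7, Srsf10 and Srsf11), none rose and 5 did not pass. That is 54.5% lower, against 11.7% of all genes tested. At 40 CPM or more, the level of 10 of the 11, 60% fell, against 22.2% of all genes at that level. The median log2 fold change was -0.08 (-0.05 with scaling by library totals alone, under which 2 fell). Srsf3 encodes the smallest SR protein, which also takes part in mRNA export. It had 563, 554 and 563 CPM in DS38 replicates 1 to 3, against 606, 596 and 609 CPM in the DMSO replicates. The groups did not overlap, and the log2 fold change was -0.11 ± 0.027 (SE; adjusted p = 0.00439, edgeR). Srsf6, a regulator of tau exon choice in human cells, had 394, 412 and 404 CPM in DS38, against 436, 441 and 435 CPM in DMSO. All DS38 values again lay below all DMSO values (log2 fold change -0.12 ± 0.028, adjusted p = 0.00338, edgeR). Both genes passed under all 17 alternatives.

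The other 4 falls among SR proteins were smaller, at -0.08 for Srsf2 and Srsf7 and -0.10 for Srsf10 and Srsf11. Srsf10 acts as a splicing repressor when it is dephosphorylated, for instance after heat shock. Each of the 4 lost its call under 3 to 8 of the 17 alternatives, among them scaling by library totals alone and leaving out DS38 replicate 1 or replicate 2. Srsf2 lost it in addition without DMSO replicate 1 or replicate 2, Srsf10 without DMSO replicate 2, and Srsf7 without any of the libraries but DMSO replicate 1. Exons of Srsf2 overlap those of Mettl23 on the other strand over 15.6% of their bases in the GENCODE M21 annotation. They also overlap Mfsd11 on the other strand over 9.74%. Mettl23 did not pass (log2 fold change 0.04, adjusted p = 0.644, edgeR), and Mfsd11 was higher in DS38 (0.15, adjusted p = 0.0435, edgeR). Whether reads were counted by strand is not given in the sources used here, so reads of such pairs cannot be told apart.

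Srsf1, the founding SR protein and the most abundant of the family per length, averaged 574 ± 15.6 TPM in DS38 and 590.5 ± 10.5 TPM in DMSO (SD, n = 3 each), TPM being the level corrected for gene length. Its groups did not overlap, yet it did not pass (log2 fold change of its counts -0.07, adjusted p = 0.0959, edgeR). Srsf1 was called lower with DESeq2, limma-voom, gene length correction, protein-coding genes alone and without DMSO replicate 3. Srsf4, Srsf5 and Srsf9 had log2 fold changes of -0.03 to -0.06 and overlapping groups. Srsf12, a scarce relative of Srsf10, had 1.69, 1.47 and 1.41 CPM in DS38, against 1.29, 1.06 and 1.09 CPM in DMSO. Every DS38 library lay above every DMSO library, but at this depth the fold change of 0.41 ± 0.18 on the log2 scale did not pass (adjusted p = 0.0989, edgeR).

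Of the 4 SR-like proteins, which share the arginine and serine tail, Tra2a and Srrm2 fell while Srrm1 and Tra2b did not pass. These 2 falls are 50% of the family, against 11.7% of all genes tested and 22.2% of those at 40 CPM or more. Tra2a, a homologue of the fly sex-determination factor transformer-2 that binds purine-rich exonic enhancers, had 184, 190.1 and 193 CPM in DS38, against 208, 221 and 212 CPM in DMSO. The groups were apart, with a log2 fold change of -0.18 ± 0.030 (adjusted p = 0.000186, edgeR). Its paralogue Tra2b had overlapping groups and a log2 fold change of -0.04 (adjusted p = 0.367, edgeR); the difference between the paralogues was not tested. Srrm2, a scaffold of nuclear speckles, had 831, 812 and 826 CPM in DS38, against 972, 917 and 845 CPM in DMSO. The DS38 values were tight and the DMSO values spread, and the lowest DMSO value, of replicate 3, stood just above the highest DS38 value. The log2 fold change was -0.15 ± 0.037 (adjusted p = 0.00498, edgeR). Srrm1, which works in a complex with Srrm2 at exonic enhancers, had a log2 fold change of -0.01 (adjusted p = 0.783, edgeR).

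Of the 20 hnRNP proteins, the largest family, 11 fell (55%), 1 rose (5%) and 8 did not pass. Among all genes tested 11.7% fell and 12.9% rose, and among those at 40 CPM or more 22.2% fell. The share of falls was close to that of the SR proteins (54.5%). The median log2 fold change of the hnRNP proteins was -0.11 (-0.07 with scaling by library totals alone). Hnrnpa2b1, a reader of N6-methyladenosine and sorter of RNA granules, was the second most abundant regulator per length, at 1252 ± 61.4 TPM in DS38 and 1469 ± 15.7 TPM in DMSO (SD, n = 3 each). By counts it had 2024, 2133 and 1933 CPM in DS38, against 2464, 2419 and 2395 CPM in DMSO. The gap between the groups was wider than the spread within either, and the log2 fold change was -0.26 ± 0.032 (adjusted p = 4.12e-06, edgeR). Hnrnpa3, its close relative, had 1235, 1273 and 1186 CPM in DS38, against 1459.5, 1380.1 and 1374 CPM in DMSO. The log2 fold change was -0.19 ± 0.032 (adjusted p = 0.000132, edgeR), and the groups did not overlap.

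Hnrnpd, also known as Auf1, binds AU-rich elements and directs the decay of short-lived messages. It had 455, 461 and 470.0 CPM in DS38, against 559, 554 and 541 CPM in DMSO. The lowest DMSO library was clear of the highest DS38 library, and the log2 fold change was -0.26 ± 0.028 (adjusted p = 6.82e-07, edgeR). Its paralogue Hnrnpdl fell less, at -0.11 ± 0.027 on the log2 scale, with 334 ± 2.36 CPM in DS38 and 362 ± 2.43 CPM in DMSO (adjusted p = 0.00296, edgeR).

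Hnrnpu, a scaffold attachment factor that binds both chromatin and RNA, had 1974, 1991 and 1981 CPM in DS38, against 2297, 2248 and 2199 CPM in DMSO. The 3 DS38 values lay close together and below all DMSO values, with a log2 fold change of -0.18 ± 0.027 (adjusted p = 4.36e-05, edgeR). Its relative Hnrnpul2, which acts in the response to DNA breaks, had 354, 359 and 342 CPM in DS38, against 411, 395 and 386 CPM in DMSO. That is a log2 fold change of -0.18 ± 0.030 (adjusted p = 0.000172, edgeR) with no overlap. Hnrnpul1, the third member of the same subfamily, moved the other way. It had 500.2, 503 and 500.5 CPM in DS38, against 481, 464 and 479.6 CPM in DMSO, a log2 fold change of 0.08 ± 0.027 (adjusted p = 0.0423, edgeR). The rise of Hnrnpul1 was small and near the threshold: it lost its call under 8 of 17 alternatives, including those without DMSO replicate 2 and without each DS38 replicate. The difference between these subfamily members was not tested.

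Hnrnpm, a repressor and activator known for its part in epithelial to mesenchymal splicing switches, had 559, 571 and 562 CPM in DS38, against 646, 620.4 and 622 CPM in DMSO. The groups were apart, with a log2 fold change of -0.16 ± 0.028 (adjusted p = 0.000233, edgeR). Its exons share 14.7% of their bases with March2, annotated on the same strand. The remaining falls were Hnrnph2 (-0.15 on the log2 scale), Hnrnpr (-0.12), Hnrnph1 (-0.12) and Hnrnpab (-0.10). Hnrnph1 and Hnrnph2 bind runs of guanines near splice sites, and Hnrnpr takes part in axonal mRNA transport. The sign of Hnrnpr turned to 0.03 when fold changes were corrected for gene length (adjusted p = 0.505, edgeR), Hnrnph1 lost its call without DS38 replicate 1, and Hnrnpab lost it with scaling by library totals alone and without DMSO replicate 1 or DS38 replicate 3. Hnrnpab exons overlap Phykpl on the other strand over 29.1% of their bases, and Phykpl, at 35.1 CPM, was itself lower in DS38 (-0.16, adjusted p = 0.00798, edgeR).

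The 8 hnRNP genes that did not pass include the most abundant regulator per length, Hnrnpa1, a repressor that competes with Srsf1 at splice sites. It averaged 1692 ± 34.1 TPM in DS38 and 1712 ± 15.6 TPM in DMSO (SD, n = 3 each), and the log2 fold change of its counts was -0.04 (adjusted p = 0.2601, edgeR). Hnrnpk, which binds runs of cytosines, had a log2 fold change of -0.04 and Hnrnpc, which covers runs of uridines and shields Alu-derived exons in human cells, one of 0.04. Hnrnpa0, Hnrnpf and Hnrnpl lay between -0.01 and 0.01 with overlapping groups, and the sign of each depended on the setting. Hnrnph3 and Hnrnpll stood at -0.05 and -0.07. In Hnrnpa1, Hnrnpk, Hnrnph3 and Hnrnpll every DS38 library lay below every DMSO library, and in Hnrnpc every DS38 library lay above.

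**Figure D2:**
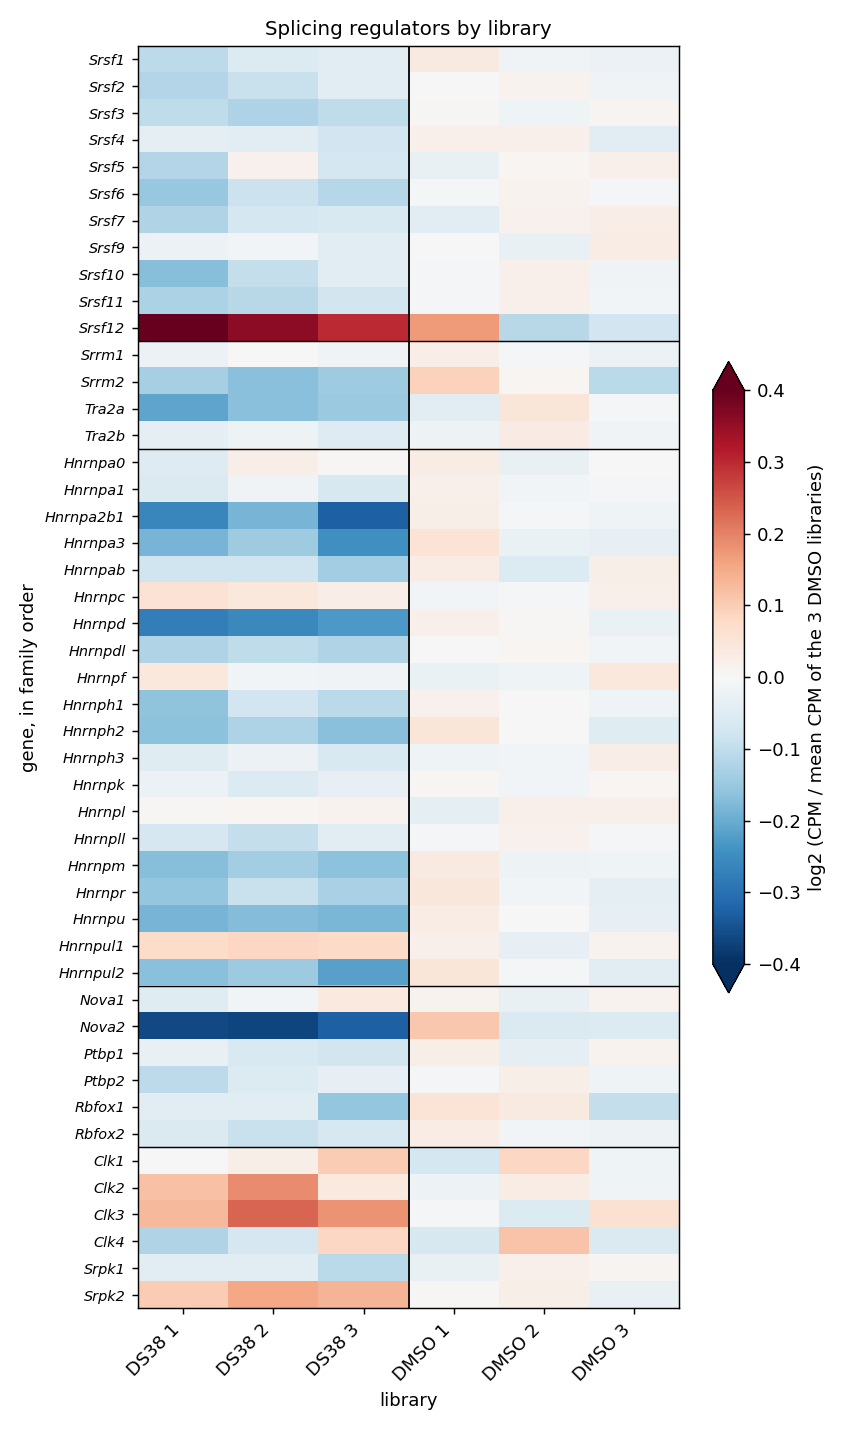
Level of each regulator in each library as the log2 of its CPM over the mean of the 3 DMSO libraries, with genes as rows in family order and DS38 libraries left of DMSO libraries. Blue is lower and red higher; the hnRNP block is blue across all 3 DS38 libraries for Hnrnpa2b1, Hnrnpd and Hnrnpu, Nova2 is the darkest blue row, and the scarce Srsf12, which did not pass, is the darkest red.

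Among the 6 tissue-specific regulators of the PTB, RBFOX and NOVA families, Nova2 fell and the other 5 did not pass. The share of falls was 16.7%, against 11.7% of all genes tested. Of the 4 regulators among them at 40 CPM or more 25% fell, against 22.2% of all genes at that level. Nova2 binds YCAY elements and controls exons of axon guidance and synaptic genes. It had 109, 108 and 111 CPM in DS38, against 150.5, 134 and 135 CPM in DMSO. The 3 DS38 libraries were alike, all DMSO libraries lay above them, and DMSO replicate 1 was the highest. The log2 fold change was -0.35 ± 0.037 (adjusted p = 4.55e-07, edgeR), the largest fall and the smallest p-value of the 47 genes. Exons of Nova2 overlap the antisense gene Gm26821 over 31.7% of their bases. The deposited counts do not hold Gm26821, so its level is not known. With the strand setting not given, its reads cannot be told apart from those of Nova2. Its paralogue Nova1 had 21.5, 22.1 and 22.9 CPM in DS38, against 22.5, 21.8 and 22.5 CPM in DMSO, with overlapping groups and a log2 fold change of -0.01 ± 0.048 (adjusted p = 0.947, edgeR). Whether the paralogues differ in response was not tested.

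Ptbp1, the repressor of neuronal exons in progenitors, had 407, 399 and 396 CPM in DS38, against 423, 405 and 419.8 CPM in DMSO. Ptbp2, its neural paralogue, had 136, 141 and 143 CPM in DS38, against 146, 149 and 145 CPM in DMSO. Neither passed, at log2 fold changes of -0.05 ± 0.028 and -0.06 ± 0.030 (adjusted p = 0.174 and 0.124, edgeR); the groups overlapped for Ptbp1 and came close without overlap for Ptbp2. The ratio of Ptbp2 to Ptbp1 in TPM was 0.173, 0.183 and 0.187 in DS38, against 0.178, 0.190 and 0.178 in DMSO. Its mean was 0.181 ± 0.0072 in DS38 and 0.182 ± 0.0068 in DMSO (SD, n = 3 each), a difference smaller than the spread between libraries (two-sided exact permutation p = 0.9, where the smallest that 3 against 3 libraries allow is 0.1).

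Rbfox2, which binds GCAUG elements and is the main RBFOX protein of these cells by level per length, had 178, 174 and 177 CPM in DS38, against 189, 184 and 183 CPM in DMSO. The groups did not overlap, but the log2 fold change of -0.07 ± 0.028 did not pass (adjusted p = 0.0760, edgeR). Rbfox2 was called lower with gene length correction, protein-coding genes alone, the stricter filter and without DMSO replicate 3. Rbfox1, the scarcer relative of differentiated neurons, had 9.33, 9.31 and 8.64 CPM in DS38, against 9.97, 9.86 and 8.997 CPM in DMSO. Its groups overlapped (log2 fold change -0.08 ± 0.072, adjusted p = 0.428, edgeR).

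The SR protein kinases were the one family with more rises than falls: 3 of 6 rose (50%) and none fell. Among all genes tested 12.9% rose, and among those at 40 CPM or more, the level of all 6 kinases, 14.2% rose. The median log2 fold change of the kinases was 0.08 (0.11 with scaling by library totals alone). Only 2 kinases rose with DESeq2, with gene length correction and in some fits that omitted a single library. With protein-coding genes alone 3 rose and 1 fell. Clk3, a nuclear kinase of SR proteins, had 58.0, 62.4 and 60.1 CPM in DS38, against 52.7, 51.1 and 55.3 CPM in DMSO. All DS38 values exceeded all DMSO values, with a log2 fold change of 0.18 ± 0.038 (adjusted p = 0.00133, edgeR). Exons of Clk3 overlap Edc3 on the other strand over 15.2% of their bases; Edc3 had 64.1 CPM and a log2 fold change of 0.03 (adjusted p = 0.574, edgeR).

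Srpk2, the SR kinase of the cytoplasm that is most abundant in brain, had 178, 185 and 182 CPM in DS38, against 167, 169 and 163 CPM in DMSO. The groups were apart (log2 fold change 0.13 ± 0.029, adjusted p = 0.00209, edgeR), and its overlapping neighbour Kmt2e, which shares 6.99% of Srpk2 exon bases on the other strand, was lower in DS38 (-0.15, adjusted p = 0.00191, edgeR). Clk2 had 65.3, 68.7 and 61.9 CPM in DS38, against 59.5, 61.6 and 59.7 CPM in DMSO. The lowest DS38 library was only just above the highest DMSO library. Its log2 fold change was 0.11 ± 0.038 (adjusted p = 0.0309, edgeR), and the call was lost under 5 alternatives, among them DESeq2 and the omission of DS38 replicate 1, DS38 replicate 2 or DMSO replicate 1.

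The other kinases did not pass. Clk1, whose own splicing responds to the activity of the CLK family, had 84.1, 85.4 and 90.2 CPM in DS38, against 80.0, 89.1 and 83.0 CPM in DMSO (log2 fold change 0.04 ± 0.038, adjusted p = 0.452, edgeR). Clk4, its closest relative, had 38.3, 39.7 and 44.1 CPM in DS38, against 39.8, 45.1 and 39.9 CPM in DMSO (log2 fold change -0.03 ± 0.052, adjusted p = 0.715, edgeR). The groups of both overlapped. Srpk1, the widely expressed SR kinase, had 153, 153 and 146 CPM in DS38, against 154, 159 and 158 CPM in DMSO; the groups touched without overlap and the log2 fold change was -0.06 ± 0.030 (adjusted p = 0.127, edgeR).

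**Figure D3:**
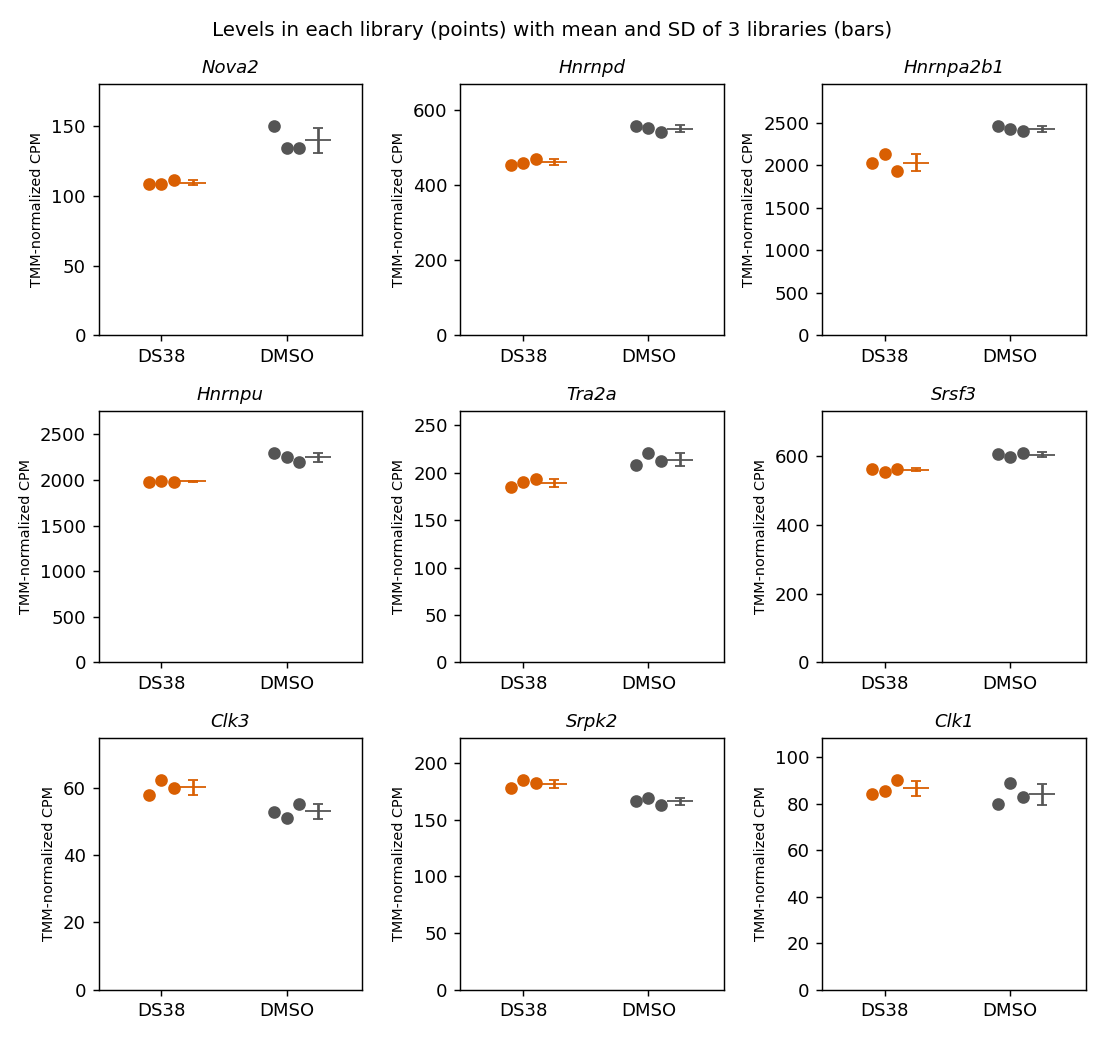
TMM-normalized CPM of 9 regulators in each library, with DS38 left of DMSO; points are libraries and bars the mean and SD of 3. Nova2, Hnrnpd, Hnrnpa2b1, Hnrnpu, Tra2a and Srsf3 lie lower in DS38, Clk3 and Srpk2 higher, and the groups of Clk1 overlap.

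Other genes of the splicing pathway were counted from 3 lists for comparison. The lists were written with earlier results of these data known, so their shares are descriptions and not an independent comparison. Of 58 core spliceosome genes, 15 fell (25.9%) and 1 rose (1.72%), against 11.7% and 12.9% of all genes tested, with a median log2 fold change of -0.05. Of the 54 at 40 CPM or more, 27.8% fell, against 22.2% of all genes at that level. The falls of smallest p were Snrpd1 (178 ± 5.53 CPM in DS38, 201 ± 4.61 CPM in DMSO) and Lsm6 (79.2 ± 0.530 CPM in DS38, 89.9 ± 2.99 CPM in DMSO), both proteins of the rings that hold spliceosomal RNAs, and the helicases Dhx15 and Ddx46, each at -0.14 on the log2 scale. Ddx39b, a helicase of spliceosome assembly and mRNA export, rose (381 ± 5.72 CPM in DS38, 348 ± 13.4 CPM in DMSO; 0.13, adjusted p = 0.00277, edgeR). The core list had 9 falls with scaling by library totals alone, 26 with correction for gene length, and 9 without DS38 replicate 2 or DS38 replicate 3.

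Of 58 tested genes in the list of other splicing regulators, which holds 62, 25 fell (43.1%) and 3 rose (5.17%), against 11.7% and 12.9% of all genes tested, with a median log2 fold change of -0.08. Of the 47 at 40 CPM or more, 42.6% fell, against 22.2% of all genes at that level. Elavl3, a neuronal Hu protein, averaged 236 ± 3.54 CPM in DS38 and 286 ± 7.71 CPM in DMSO, a log2 fold change of -0.28 (adjusted p = 4.25e-07, edgeR). Srrm4, the activator of neuronal microexons, averaged 81.7 ± 0.103 CPM in DS38 and 103 ± 6.49 CPM in DMSO, a log2 fold change of -0.33 (adjusted p = 9.25e-07, edgeR). Rbm25 (-0.24) and Tardbp (-0.21), which represses cryptic exons, also fell.

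The 3 rises in that list were Celf5, at 3.06 ± 0.362 CPM in DS38 and 2.05 ± 0.435 CPM in DMSO (0.58, adjusted p = 0.00602, edgeR), Msi1 (0.10) and Pcbp3 (0.11). None of the 3 passed without DMSO replicate 2; without DS38 replicate 1 or DS38 replicate 2 the list had 1 rise each. Of 18 genes of the exon junction complex and nonsense-mediated decay, which removes messages with premature stops, 7 fell (38.9%) and 1 rose (5.56%), against 11.7% and 12.9% of all genes tested. At 40 CPM or more 7 of 14 fell (50.0%), against 22.2% of all genes at that level. Smg1, the kinase that starts this decay, averaged 263 ± 7.09 CPM in DS38 and 330.3 ± 35.2 CPM in DMSO (-0.33, adjusted p = 2.89e-05, edgeR), and did not pass with robust dispersion (adjusted p = 0.0525). Upf3a, Upf3b and Smg5 fell by 0.16, 0.13 and 0.12 on the log2 scale, while Dhx34 rose by 0.18 (adjusted p = 0.0156, edgeR) and lost that call under 4 alternatives. This list had 4 falls when DS38 replicate 2, DS38 replicate 3 or DMSO replicate 2 was left out.

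**Figure D4:**
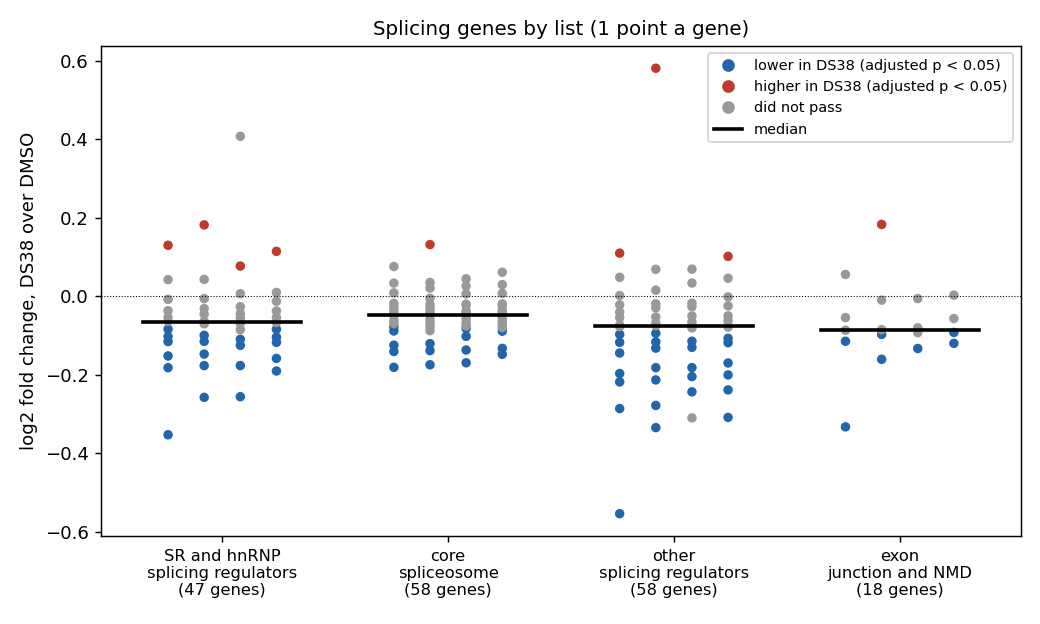
Log2 fold change of DS38 over DMSO for each tested gene (1 point a gene) of 4 lists, with the median as a black line. The medians lie at -0.07, -0.05, -0.08 and -0.09, and in each list blue points (lower in DS38) outnumber red ones (higher).

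**Figure D5:**
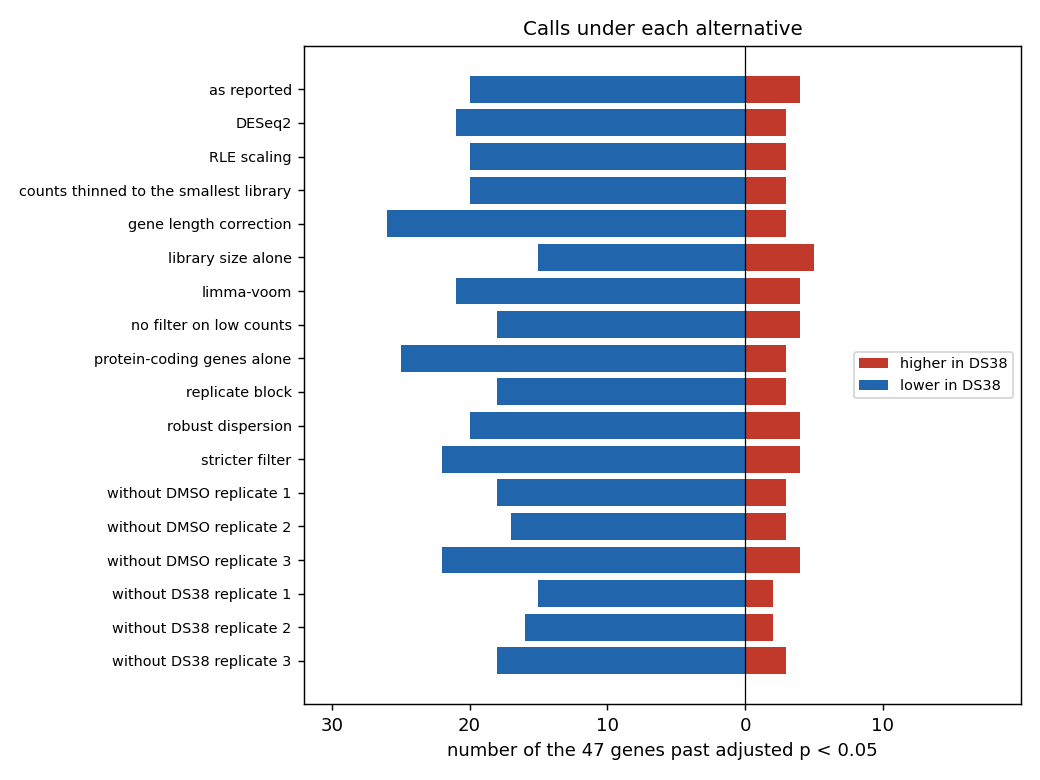
Number of regulators called lower in DS38 (blue, to the left of 0) or higher (red, to the right) under the reported setting and 17 alternatives; 46 of the 47 were tested under the stricter filter. Lower calls range between 15 and 26 and higher calls between 2 and 5.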

How the data were processed

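RNA was extracted with a Qiagen RNeasy kit and made into libraries with the Roche Kapa mRNA Hyper Prep kit, per the labels' protocols. The authors deposited whole-number read counts per gene for 6 libraries, with each gene's length beside them. The submitters' processing notes list edgeR, R 4.1.0, Subread 2.0.3, featureCounts and STAR 2.7.9a, and the builds GRCm39 and GRCh38.p13, with no role or order. How reads matching several genes were treated is not given in the sources used here, so counts of near-identical copies are uncertain.

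Symbols matched 52083 identifiers. GENCODE M21 (GRCm38) gave gene classes and exon overlaps, without coordinates. The tools were Python 3.11.15 with scipy 1.17.1 and matplotlib 3.10.9, and R 4.3.3 with DESeq2 1.42.0, limma 3.58.1 and edgeR 4.0.16. Genes passing filterByExpr (minimum count 10, minimum total 15) were scaled by TMM and compared with edgeR (quasi-likelihood, two-sided) in a model of group alone; p-values were adjusted by Benjamini-Hochberg over 17679 genes and called under 0.05. The biological coefficient of variation common to all genes was 0.0330. CPM values are TMM-normalized; TPM used the deposited lengths. The test was tested on simulated data (seed 11). Members and lists were chosen with earlier results of these data known.

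Per-library values are given for the 8 calls of lowest adjusted p among falls and among rises, all kinases and the PTB, RBFOX and NOVA genes; Srsf3, Srsf6, Srsf12 and Srrm2 were added after their values were seen. Of each other list, up to 4 falls and 4 rises of lowest adjusted p are named. Alternatives were DESeq2, limma-voom, RLE scaling, library totals alone, a block for the replicate number, no filter, at least 5 CPM in 3 libraries as a stricter filter, thinning to the smallest library, correction for gene length (lowess span 0.3), robust dispersion, protein-coding genes alone, and leaving out each library.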

Additional observations from a re-analysis of the deposited data

How the results depend on the processing

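The replicate numbers were not found to pair the libraries: same-numbered DS38 and DMSO libraries deviated with r of 0.0365, -0.0112 and -0.0231. With the replicate number as a block, 18 regulators were lower and 3 higher in DS38. Leaving out 1 library in turn gave 15 to 22 lower and 2 to 4 higher. The cause of the changes below was not tested.

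With library size alone, core spliceosome genes had 3 rises and 9 falls, other splicing regulators 7 rises, and exon junction and NMD genes 2 rises and 4 falls; with gene length correction the core list had 26 falls, and with thinned counts the NMD list had 0 rises. The median of the regulators was -0.0317 with library size alone, -0.0894 with gene length correction and -0.0806 with protein-coding genes alone. When single libraries were left out, core falls ranged over 9 to 15, rises of other regulators over 0 to 3, NMD rises over 0 to 2 and NMD falls over 4 to 7.

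Signs turned for Hnrnpr (0.0274 with gene length correction) and otherwise for genes that had not passed. With library size alone log2 fold changes were 0.0082 for Srsf9, 0.0222 for Srrm1, 0.0273 for Hnrnpa0, 0.0290 for Nova1 and 0.0038 for Clk4. With no filter Hnrnpa0 was at 8.1e-05 and Nova1 at 0.0018. Hnrnpf was at -0.00087 with DESeq2, -0.00096 with RLE, -0.0381 with gene length correction and -0.0075 with protein-coding genes alone. Hnrnpl was at -0.0125 with gene length correction and -0.0043 with protein-coding genes alone, and Nova1 at 0.0053 with gene length correction. Over left-out libraries the ranges were -0.0275 to 0.0015 for Srrm1, -0.0228 to 0.0145 for Hnrnpa0, -0.0110 to 0.0244 for Hnrnpf, -0.0095 to 0.0198 for Hnrnpl, -0.0297 to 0.0168 for Nova1 and -0.0936 to 0.0317 for Clk4. The difference in the Ptbp2 to Ptbp1 ratio ranged over -0.0042 to 0.0028. The scarcest regulator, Srsf12, rests on 501 reads over 6 libraries, which limits the precision of its fold change.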

Other observations

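One of the 2 pseudogenes left out, Hnrnpa1l2-ps2, had 10.2 CPM in each DS38 library, against 11.8, 11.9 and 13.4 CPM in DMSO (-0.28 ± 0.067, adjusted p = 0.00399, edgeR). Hnrnpa1, which it resembles by symbol, did not pass. The similarity of the 2 sequences was not examined. If they are near-identical, reads may be split between them, so the value of Hnrnpa1l2-ps2 is uncertain.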
